A study of Homo sapiens with 18 samples.

Results

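WNT ligands, their receptors, their secreted antagonists and the intracellular parts of the WNT pathway were followed in 3 lines of K562, a human chronic myelogenous leukemia cell line. The genes were chosen by symbol and not by their values. They were all genes named WNT, FZD, DKK or SFRP with a number, together with LRP5, LRP6, CTNNB1, AXIN1, AXIN2, APC, LEF1, TCF7, TCF7L1, TCF7L2, NKD1, RNF43, ZNRF3 and LGR5. The rule found 51 of the 28395 genes in the expression tables, and 29 of them had a normalized count of at least 10 in at least 3 libraries and were analysed.

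V-K562 is the control line and was reported to make no BASP1 of its own. B-K562 expresses wtBASP1, a transcriptional corepressor that carries a myristoyl lipid at its N terminus. G-K562 expresses BASP1-G2A, which cannot be myristoylated. The derivatives were stably transfected and selected as pools with G-418, so none of them is a single clone. Cells for ATAC-seq, unlike those for RNA-seq, were incubated with DNase before harvest. RNA-seq and ATAC-seq, which maps open chromatin by transposase cutting, were each carried out on 3 libraries per line, described in the study's methods as biological triplicates.

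The BASP1 normalized count was 5 to 7 in the control libraries, 6189 to 6849 in those of B-K562 and 8124 to 12538 in those of G-K562, as the labels state. The 9 erythroid markers, which define the K562 lineage, were present in every line, but their summed normalized count differed. It was 124627 to 140224 in the V-K562 libraries, 206683 to 210265 in the B-K562 libraries and 69424 to 75161 in the G-K562 libraries. The 5 lymphoid markers summed to between 2972 and 3173 in V-K562, between 317 and 333 in B-K562 and between 629 and 683 in G-K562, with 4 of the 5 reaching 10 in some library of each line. Not every marker followed its sum. TFRC was higher in G-K562 (35087, 28864 and 31068) than in V-K562 (20453, 22731 and 20919), while the other erythroid markers were lower. Most of the V-K562 lymphoid sum was PTPRC, and CD3E was higher in both BASP1 lines while PTPRC and CD3D were lower. Both sums differed between the lines in which the WNT genes changed, and their part in the WNT results was not tested. In bulk cultures, fewer expressing cells and less RNA per cell cannot be told apart.

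WNT proteins are secreted lipid-modified ligands that bind Frizzled (FZD) receptors, usually with the co-receptor LRP5 or LRP6. Without a signal, β-catenin, the product of CTNNB1, is marked for breakdown by a destruction complex built on APC and AXIN1. With a signal it accumulates and joins the DNA-binding factors LEF1, TCF7, TCF7L1 and TCF7L2 in the nucleus. Another, β-catenin independent branch is typical of ligands such as WNT5B and controls cell shape and movement. AXIN2, NKD1, RNF43 and ZNRF3 are well known feedback genes of the pathway: AXIN2 acts in the destruction complex, NKD1 binds the transducer Dishevelled, and RNF43 and ZNRF3 remove Frizzled receptors from the cell surface. In blood, WNT signals take part in stem cell maintenance, and LEF1 and TCF7 are best known from lymphoid development.

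K562 cells had RNA for the receptors and the intracellular parts of the pathway, and for few of the ligands and antagonists. Of 19 ligand genes, 6 were analysed (WNT2B, WNT3, WNT5B, WNT9A, WNT10B and WNT11). Of 12 receptor genes, 11 were analysed, with FZD10 at 2 or less in every library. SFRP5 was the only 1 of 8 secreted antagonists that was analysed, and DKK1 to DKK4, SFRP1, SFRP2 and SFRP4 stayed at 9 or less in every library. All 3 genes of the catenin and destruction complex group, all 4 nuclear factors and 4 of the 5 feedback genes were analysed, with LGR5 at 1 or less. No library reached 10 for the 13 remaining ligands, of which WNT7A was highest with 8, 7 and 8 in V-K562, and WNT8A and WNT8B were listed at 0 throughout. SFRP3 is listed as FRZB, which the rule did not match.

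Per kilobase of transcript, the V-K562 level of CTNNB1 was the highest of the 29, at 2023 normalized counts per kb, followed by AXIN1 at 523 and LRP5 at 458. FZD4 at 197, LEF1 at 183 and FZD5 at 148 came next, and WNT3 at 77.8 and WNT5B at 71.4 were the highest ligands on the same scale. These are levels of the gene and not of a protein. In the plot of all 29 members by library, the 3 libraries of a line mostly sit close together, and FZD3, FZD6 and WNT5B have the widest differences between lines on this scale, with FZD6 at low values.

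**Figure D1:**
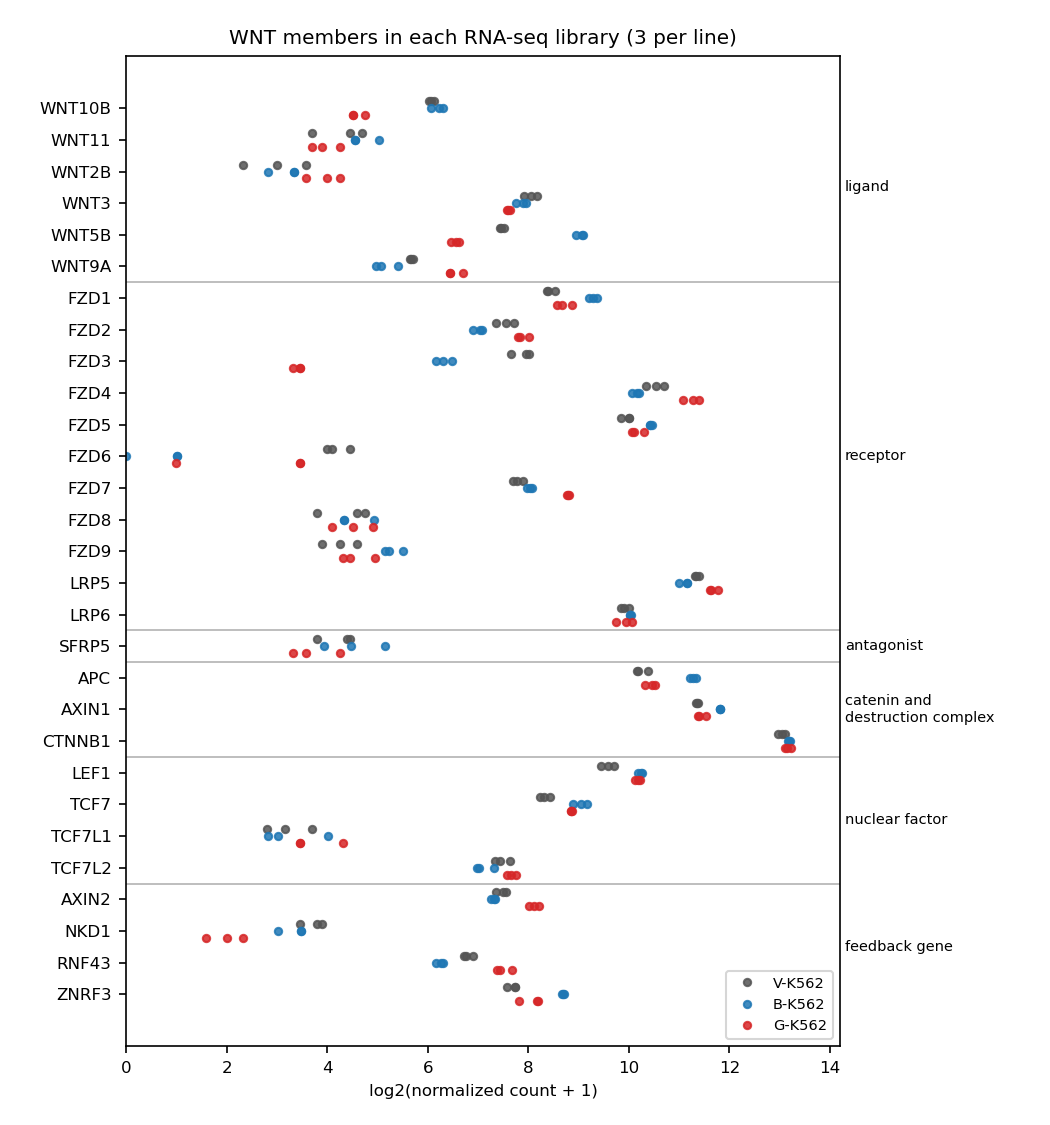
RNA of the 29 analysed WNT members (vertical axis, grouped by role) in each of 9 libraries, as log2(normalized count + 1) on the horizontal axis, with 1 point per library coloured by line and B-K562 values multiplied by 1.017 to match the second table. FZD3 runs from high in V-K562 to low in G-K562, and WNT5B is highest in B-K562 and lowest in G-K562.

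The first comparison asked which members differed in cells with wtBASP1, and the second which differed in cells with the form that cannot be myristoylated. In B-K562, 11 of 27 tested members rose (38.6% of all genes tested) and 8 fell (37.2% of all genes), by limma with an adjusted p of at most 0.05. At least 2-fold changes were 4 higher (6.46% of all genes) and 2 lower (14.1% of all genes). In G-K562, 14 of 29 rose (33.5% of all genes) and 6 fell (33.3% of all genes), with 1 at least 2-fold higher (8.81%) and 4 at least 2-fold lower (10.3%). Between the BASP1 lines directly, 9 of 29 were higher in G-K562 (38.1% of all genes) and 13 lower (40.5% of all genes), with 4 at least 2-fold higher (17.4%) and 4 at least 2-fold lower (12.5%). In either direction, 8 of 27 members did not pass in B-K562 and 9 of 29 did not in G-K562, where 75.8% and 66.9% of all genes passed, so the members were called at shares near the background. The median over members was 0.15 in B-K562 on the log2 scale, 0.21 in G-K562 and −0.11 in G-K562 against B-K562, where the medians over all genes were 0.01, 0.00 and −0.02. Both BASP1 lines were compared with the same V-K562 libraries.

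Some of these counts moved with the scaling or with 1 library. Quantile normalization gave 14 higher and 4 lower in B-K562, and upper quartile scaling gave 9 higher and 10 lower, with 1 higher and 2 lower at 2-fold. Upper quartile scaling shifted the median of all genes by −0.15 in B-K562 against V-K562 and by 0.12 in G-K562 against B-K562. In G-K562 against V-K562 the 2-fold counts were 3 higher and 3 lower under quantile normalization and 0 higher and 4 lower under upper quartile scaling, and in G-K562 against B-K562 they were 2 higher and 7 lower under quantile normalization. There, upper quartile scaling gave 10 members higher and 10 lower by adjusted p. The number that rose in G-K562 was 8 without V-K562 replicate 1 and 9 without G-K562 replicate 1, and the number that fell in B-K562 was 5 without V-K562 replicate 2. At 2-fold, B-K562 had 2 higher members without V-K562 replicate 1 and 1 lower member without V-K562 replicate 1, 2 or 3, and G-K562 had 2 lower members without V-K562 replicate 1, 2 or 3. The single 2-fold rise in G-K562 became 0 without V-K562 replicate 1 or 2 or G-K562 replicate 2, and 2 without V-K562 replicate 3 or G-K562 replicate 1.

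Of the 27 members tested in both comparisons, 7 rose in both (APC, ZNRF3, LEF1, TCF7, FZD1, FZD5 and FZD7) and FZD3 and FZD6 fell in both. FZD6 entered the B-K562 test through V-K562 alone. RNF43, WNT9A, FZD2, FZD4 and LRP5 fell in B-K562 and rose in G-K562, and WNT5B did the opposite. For these last 6 the direct comparison of G-K562 with B-K562 was also past the threshold. The share of all genes with each of these patterns was not computed. Over all genes tested, 75.8% passed in B-K562 and 66.9% in G-K562, against the same V-K562 libraries. The pattern counts are therefore not shown to be particular to the members. The falls of RNF43, WNT9A and FZD2 in B-K562 were not past it under quantile normalization, at adjusted p = 0.56, 0.87 and 0.14. WNT11, FZD8, LRP6 and SFRP5 passed in neither comparison with V-K562, although under quantile normalization WNT11, SFRP5 and FZD8 were higher in B-K562, by 1.01, 0.88 and 0.72 (adjusted p = 0.014, 0.038 and 0.044).

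**Figure D2:**
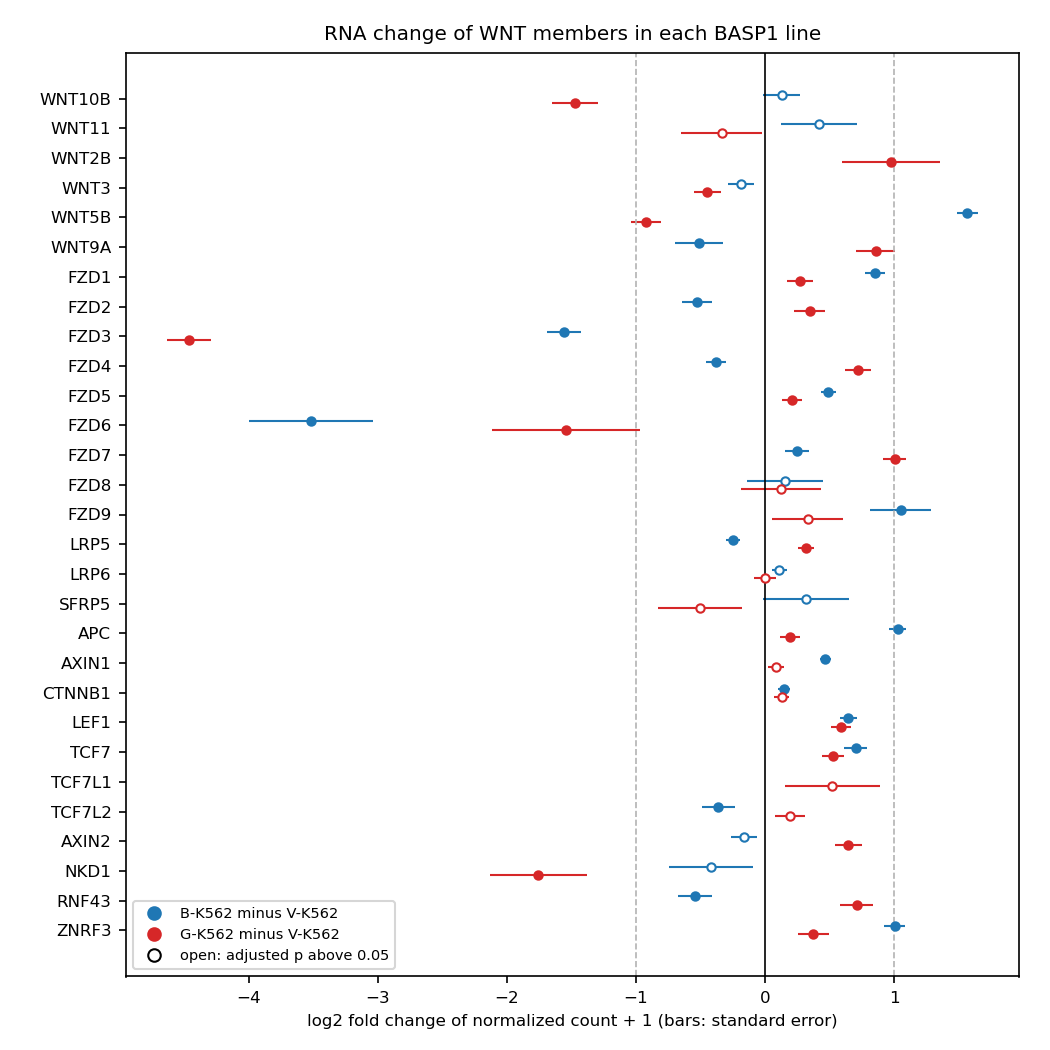
Log2 fold change of each member in B-K562 (blue) and G-K562 (red) against V-K562, with bars of 1 standard error (n = 3 libraries per line), open circles for an adjusted p above 0.05, and dashed lines at 2-fold. FZD3 and FZD6 lie left of 0 in both lines, WNT5B lies right in B-K562 and left in G-K562, and RNF43 and FZD4 show the reverse.

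Among the ligands, WNT5B changed most in B-K562. WNT5B acts mainly through the β-catenin independent branch. Its normalized counts were 179, 172 and 170 in V-K562, 529, 537 and 486 in B-K562 and 98, 94 and 87 in G-K562, so that no line overlapped another. In this and the following gene descriptions, V-K562 values are those of the table made with B-K562, and they are on average 1.017 times higher in the table made with G-K562. The log2 fold change of WNT5B was 1.57 ± 0.08 (SE, adjusted p = 1.1e-09) in B-K562, −0.92 ± 0.12 (2.9e-05) in G-K562 and −2.49 ± 0.09 (1.0e-11) in G-K562 against B-K562. WNT5B (chr12:1529891-1647213, plus strand, GRCh38) overlaps FBXL14 on the other strand, and the counting is not stated to have used strand, so reads of the pair cannot be told apart.

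WNT10B, a ligand of the β-catenin branch, was low only in G-K562 among the lines measured. Its normalized counts were 68, 65 and 63 in V-K562, 77, 65 and 73 in B-K562 and 22, 22 and 26 in G-K562. The G-K562 libraries lay below all others, while V-K562 and B-K562 overlapped. The log2 fold change was −1.47 ± 0.18 (adjusted p = 2.1e-05) in G-K562 and 0.13 (adjusted p = 0.43) in B-K562, and −1.60 in the direct comparison of G-K562 with B-K562 (adjusted p = 3.5e-07). Quantile normalization moved the B-K562 value to 0.60 (adjusted p = 0.0021). WNT3, another β-catenin branch ligand, stood at 261, 285 and 237 in V-K562, 211, 233 and 243 in B-K562 and 191, 199 and 192 in G-K562. WNT3 fell by 0.45 on the log2 scale in G-K562 (adjusted p = 0.0024), and its lower level in G-K562 than in B-K562 (log2 fold change −0.26, adjusted p = 0.023) reached up to adjusted p = 0.092 without B-K562 replicate 2 or 3 or G-K562 replicate 1. With upper quartile scaling that difference was −0.14 (adjusted p = 0.20), and WNT3 then fell in B-K562 (−0.34, adjusted p = 0.0061), where otherwise it had −0.19 (adjusted p = 0.10).

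WNT9A, the ligand gene neighbouring WNT3A, rose in G-K562. Its normalized counts were 50, 49 and 48 in V-K562, 41, 30 and 32 in B-K562 and 103, 86 and 86 in G-K562, with no overlap between lines. It changed by 0.86 ± 0.15 on the log2 scale in G-K562 (adjusted p = 3.6e-04) and 1.37 ± 0.17 in G-K562 against B-K562 (adjusted p = 2.8e-06). The fall in B-K562 (−0.51, adjusted p = 0.022) reached adjusted p = 0.084 without V-K562 replicate 1 or 2 or B-K562 replicate 2 or 3. WNT2B and WNT11 were near the limit of the filter, at 4 to 18 and 12 to 31. WNT2B rose in G-K562 from 7, 4 and 11 to 11, 18 and 15 (log2 fold change 0.98, adjusted p = 0.040), which reached adjusted p = 0.15 without V-K562 replicate 1 or 2 or G-K562 replicate 2 or 3. WNT2B also overlaps ST7L. WNT11 was lower in G-K562, at 14, 12 and 18, than in B-K562, at 22, 22 and 31 (log2 fold change −0.75, adjusted p = 0.031), and this reached adjusted p = 0.12 without B-K562 replicate 3 or G-K562 replicate 1 or 2.

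The receptor FZD3 fell more than any other analysed member in G-K562. FZD3 is a Frizzled best known from planar cell polarity and axon growth. Its normalized counts were 254, 243 and 198 in V-K562, 77, 87 and 70 in B-K562, and 10, 10 and 9 in G-K562. Each line lay wholly apart from the others, in that order. The log2 fold change was −1.56 ± 0.13 (SE, adjusted p = 1.2e-07) in B-K562, −4.46 ± 0.17 (2.6e-09) in G-K562 and −2.91 ± 0.16 (5.5e-10) in G-K562 against B-K562. FZD3 lies on chr8:28494205-28574268, plus strand. For the 14 tested genes lying at least partly within 1 Mb of it, log2 fold changes ran from −3.25 to 0.67 in B-K562 (median −0.46). In G-K562 they ran from −3.40 to 0.79 (median −0.08).

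FZD6, a receptor of the polarity branch as well, was at the bottom of the measured range. It had 21, 15 and 16 in V-K562, 1, 1 and 0 in B-K562 and 10, 1 and 10 in G-K562. All B-K562 and G-K562 values lay below those of V-K562. Summed over libraries, V-K562 exceeded B-K562 by 26.0-fold, with a binomial 95% interval from 6.85 to 220.4. The interval treats rounded normalized counts as counts and covers counting error only. In this comparison FZD6 passed the filter of 10 in 3 libraries through V-K562 alone, where it was higher. The ratio, its interval and the call of a fall in B-K562 are therefore not independent of the filter. The fall in G-K562 (log2 fold change −1.54 ± 0.58, adjusted p = 0.033) reached adjusted p = 0.088 without V-K562 replicate 1, 2 or 3 or G-K562 replicate 2. The difference of G-K562 from B-K562 (1.96, adjusted p = 0.0089) reached 0.057 without G-K562 replicate 1 or 3.

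FZD4 and FZD7 rose in G-K562. FZD4, a receptor known from blood vessel growth in the retina, was at 1284, 1468 and 1623 in V-K562, 1058, 1164 and 1132 in B-K562 and 2685, 2147 and 2496 in G-K562. The 3 lines did not overlap, with B-K562 lowest and G-K562 highest. The log2 fold change of FZD4 was −0.38 ± 0.08 in B-K562 (adjusted p = 5.0e-04), 0.72 ± 0.10 in G-K562 (5.2e-05) and 1.10 ± 0.09 in G-K562 against B-K562 (4.4e-08). FZD4 overlaps PRSS23 and their reads cannot be told apart. FZD7, often described as a receptor of stem cells, was at 215, 203 and 232 in V-K562, 258, 265 and 248 in B-K562 and 441, 451 and 437 in G-K562. Again no line overlapped another. Its log2 fold change was 1.01 ± 0.09 in G-K562 (adjusted p = 1.7e-06) and 0.76 in G-K562 against B-K562 (7.6e-07). The small rise of FZD7 in B-K562 (0.25, adjusted p = 0.023) reached adjusted p = 0.085 without V-K562 replicate 2 or B-K562 replicate 1 or 2, and adjusted p = 0.37 under upper quartile scaling.

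**Figure D3:**
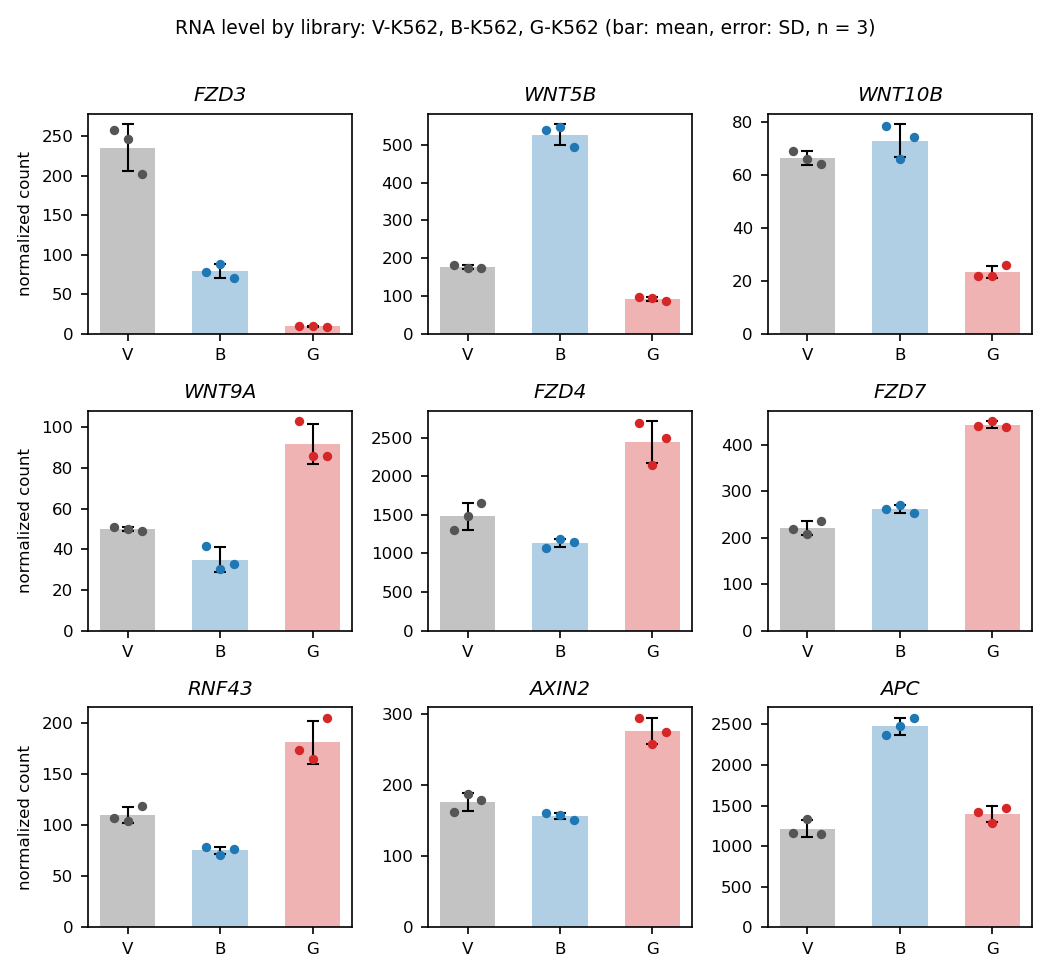
Normalized counts (vertical axes from 0) of 9 members in the V, B and G lines, with points for libraries, bars for means and error bars for SD (n = 3), on the scale shared by the 9 libraries. B-K562 is highest for WNT5B and APC, and G-K562 is highest for WNT9A, FZD4, FZD7, RNF43 and AXIN2 and lowest for FZD3, WNT5B and WNT10B.

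FZD1, a receptor of the β-catenin branch, rose in B-K562 from 324, 366 and 328 to 645, 613 and 579 (log2 fold change 0.85 ± 0.08, adjusted p = 2.5e-07). In G-K562 FZD1 had 468, 406 and 378, and its rise there (0.27, adjusted p = 0.032) reached adjusted p = 0.15 without V-K562 replicate 1 or 3 or G-K562 replicate 1. FZD5, a receptor known from eye and gut, rose in B-K562 from 905, 1012 and 999 to 1354, 1355 and 1381 (0.49, adjusted p = 3.8e-06), and stood at 1264, 1104 and 1065 in G-K562. Its rise in G-K562 (0.21, adjusted p = 0.039) reached adjusted p = 0.19 without V-K562 replicate 1 or 2 or G-K562 replicate 1, and was not past the threshold under quantile or upper quartile scaling (adjusted p = 0.066 and 0.061).

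FZD2, which can signal through both branches, was at 159, 204 and 183 in V-K562, 132, 129 and 116 in B-K562 and 258, 222 and 226 in G-K562, and B-K562 and G-K562 differed by 0.87 on the log2 scale (adjusted p = 7.3e-06). The rise in G-K562 (0.34, adjusted p = 0.025) reached adjusted p = 0.10 without V-K562 replicate 1 or G-K562 replicate 1. FZD9, with 18, 14 and 22 in V-K562, rose to 44, 34 and 36 in B-K562 (1.05 ± 0.24, adjusted p = 0.0012). In G-K562 FZD9 had 21, 30 and 19, overlapping V-K562, and its lower level than in B-K562 (−0.72, adjusted p = 0.016) reached adjusted p = 0.066 without B-K562 replicate 1 or G-K562 replicate 1 or 3. FZD8 stayed between 13 and 29 in all 9 libraries.

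Of the co-receptors, LRP5 moved and LRP6 did not pass the test. LRP5 was at 2524, 2530 and 2655 in V-K562, 2008, 2230 and 2254 in B-K562 and 3482, 3125 and 3166 in G-K562, and the lines did not overlap. Its log2 fold change was −0.25 in B-K562 (adjusted p = 9.4e-04), 0.32 in G-K562 (7.1e-04) and 0.57 between the BASP1 lines (5.9e-07). LRP6 lay between 856 and 1062 throughout. SFRP5, a secreted antagonist that binds WNT proteins, had 21, 20 and 12 in V-K562, 34, 21 and 14 in B-K562 and 18, 11 and 9 in G-K562. SFRP5 was lower in G-K562 than in B-K562 (−0.80, adjusted p = 0.048), which reached adjusted p = 0.23 without V-K562 replicate 1 or 2, B-K562 replicate 1 or 2 or G-K562 replicate 2 or 3, and 0.086 under upper quartile scaling.

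In the destruction complex, both scaffold genes rose in B-K562. APC, the tumour suppressor of colorectal cancer, had 1144, 1313 and 1130 in V-K562, 2327, 2440 and 2535 in B-K562 and 1416, 1285 and 1476 in G-K562. B-K562 lay wholly above the other lines. The log2 fold change was 1.03 ± 0.06 (SE, adjusted p = 5.7e-09) in B-K562 and −0.83 ± 0.07 (5.2e-08) in G-K562 against B-K562. The smaller rise of APC in G-K562 (0.20, adjusted p = 0.045) reached adjusted p = 0.16 without V-K562 replicate 1 or 3 or G-K562 replicate 1 or 3, and 0.069 under upper quartile scaling. APC lies on chr5:112707505-112846239, plus strand.

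AXIN1 had 2542, 2610 and 2555 in V-K562, 3554, 3550 and 3559 in B-K562 and 2970, 2679 and 2673 in G-K562. It rose in B-K562 by a log2 fold change of 0.47 (adjusted p = 3.3e-07), while its value of 0.08 in G-K562 did not pass. CTNNB1, which encodes β-catenin itself, was at 7867, 8631 and 8297 in V-K562, 9030, 9209 and 9236 in B-K562 and 9093, 8867 and 9598 in G-K562. Its log2 fold change in B-K562 was 0.15 (adjusted p = 0.010), but it was 0.03 under quantile normalization (adjusted p = 0.48) and −0.01 under upper quartile scaling, so the direction is not fixed by these data. CTNNB1 overlaps ULK4. RNA of CTNNB1 does not measure the β-catenin protein, which is controlled by breakdown.

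Of the nuclear factors, LEF1 and TCF7 rose in both BASP1 lines and TCF7L2 differed between them. LEF1 had 820, 761 and 686 in V-K562, 1185, 1149 and 1204 in B-K562 and 1193, 1160 and 1111 in G-K562. The BASP1 lines overlapped each other and lay above V-K562. The log2 fold changes of LEF1 were 0.65 ± 0.07 (adjusted p = 1.2e-06) in B-K562 and 0.59 (3.8e-05) in G-K562, with −0.06 between the BASP1 lines (adjusted p = 0.46). LEF1 overlaps LEF1-AS1 on the other strand, and their reads cannot be told apart. TCF7 had 341, 314 and 294 in V-K562, 519, 466 and 564 in B-K562 and 458, 462 and 467 in G-K562, with log2 fold changes of 0.70 (adjusted p = 6.8e-06) and 0.52 (2.1e-04). TCF7L2 had 169, 196 and 156, then 156, 123 and 126, then 214, 202 and 191 in the same order of lines, so that B-K562 and G-K562 did not overlap (log2 fold change 0.56, adjusted p = 6.8e-04). The fall of TCF7L2 in B-K562 (−0.36, adjusted p = 0.019) reached adjusted p = 0.10 without V-K562 replicate 2 or B-K562 replicate 2 or 3, and 0.75 under quantile normalization. TCF7L1 lay between 6 and 19 in all libraries and passed in no comparison.

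The 4 feedback genes did not move together. AXIN2, widely used as a readout of β-catenin signalling, had 159, 184 and 175 in V-K562, 158, 155 and 149 in B-K562 and 295, 258 and 275 in G-K562. The G-K562 libraries lay above all others, while the lowest V-K562 and the highest B-K562 value differed by 1. Its log2 fold change was 0.65 ± 0.11 (SE, adjusted p = 2.1e-04) in G-K562, −0.16 (adjusted p = 0.17) in B-K562 and 0.81 between the BASP1 lines (2.6e-06). Under upper quartile scaling AXIN2 fell in B-K562, with a log2 fold change of −0.32 (adjusted p = 0.013). RNF43 had 106, 102 and 117 in V-K562, 77, 70 and 75 in B-K562 and 173, 165 and 205 in G-K562, and no line overlapped another. RNF43 rose in G-K562 by 0.71 ± 0.13 (adjusted p = 4.2e-04), and the BASP1 lines differed by 1.25 ± 0.12 (3.2e-07). RNF43 overlaps TSPOAP1-AS1.

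ZNRF3, which acts on Frizzled receptors as RNF43 does, was instead highest in B-K562. It had 186, 209 and 209 in V-K562, 400, 409 and 404 in B-K562 and 287, 224 and 290 in G-K562, with no overlap between lines. In B-K562 it changed by 1.0 ± 0.08 on the log2 scale (adjusted p = 1.1e-07), and by −0.63 in G-K562 against B-K562 (6.5e-05). The rise in G-K562 (0.37, adjusted p = 0.017) reached adjusted p = 0.071 without V-K562 replicate 1 or G-K562 replicate 1 or 3. ZNRF3 overlaps ZNRF3-AS1. NKD1 was low, at 13, 14 and 10 in V-K562, 7, 10 and 10 in B-K562 and 4, 3 and 2 in G-K562. Its log2 fold change in G-K562 against V-K562 was −1.76 ± 0.38 (adjusted p = 0.0015). In that comparison NKD1 passed the filter of 10 in 3 libraries through V-K562 alone, where it was higher. The p-value is therefore not independent of the filter.

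The rest of the pathway was counted in 6 lists, by an adjusted p of at most 0.05. Beside these counts stand the shares over all genes tested. In B-K562, 38.6% of all genes rose and 37.2% fell, and in G-K562 33.5% rose and 33.3% fell. Whether any list differs from these shares was not tested. Of 4 tested genes for ligand secretion and R-spondins, 1 rose and 3 fell in B-K562, and all 3 tested in G-K562 fell. LGR6, an R-spondin receptor, averaged 140 normalized counts in V-K562 and 23.7 in B-K562 (log2 fold change −2.54), and 142 and 4.67 in G-K562 (−4.69). RSPO4, which encodes an R-spondin, averaged 5.33 in V-K562 and 13.3 in B-K562 (1.33). Of 9 co-receptor and planar polarity genes, 2 rose and 4 fell in B-K562, and 5 rose and 2 fell in G-K562. GPC6, a glypican, averaged 21.0 and 6.33 in V-K562 and B-K562 (−1.60), and PTK7, a pseudokinase co-receptor, averaged 395.7 and 1481 in V-K562 and G-K562 (1.90). PRICKLE1, a polarity gene, was lower in G-K562 than in B-K562, at 18.3 and 38.6 (−1.03).

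Of 7 other antagonists, 1 rose and 6 fell in B-K562, and 2 rose and 3 fell in G-K562. TPBG, a membrane glycoprotein that inhibits WNT signalling, averaged 276.7 in V-K562 and 62.7 in B-K562 (log2 fold change −2.13). SOSTDC1, a secreted antagonist of WNT and BMP, averaged 357 in V-K562 and 2578 in G-K562 (2.84), and G-K562 exceeded B-K562 by 3.26 on the log2 scale. FRZB fell from 14.7 to 6.0 in G-K562 (−1.17). Of the 18 cytoplasmic transducers, 11 rose and 5 fell in B-K562, and 10 rose and 3 fell in G-K562. AMER1, which binds APC, averaged 237.3 in V-K562 and 724.7 in B-K562 (1.61), and was lower in G-K562 than in B-K562 by 2.26 on the log2 scale. CTNNBIP1, an inhibitor of β-catenin, averaged 1781 in G-K562 and 809.9 in B-K562 (1.13).

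Of 11 tested nuclear cofactors, 7 rose and 4 fell in B-K562, and 8 rose and 2 fell in G-K562. TLE2, TLE3 and TLE4 encode corepressors that bind LEF1 and TCF proteins. TLE2 averaged 1213 in V-K562 and 253.7 in B-K562 (log2 fold change −2.25), and 1234 in V-K562 and 4831 in G-K562 (1.97). TLE4 averaged 442.7 in V-K562 and 16.0 in G-K562 (−4.78), and changed by −0.35 in B-K562. TLE3 rose in both, by 0.73 in B-K562 and 0.26 in G-K562. Of 15 tested genes known as WNT targets in other tissues, 6 rose and 6 fell in B-K562, and 6 rose and 3 fell in G-K562. ASCL2, a factor of intestinal stem cells, averaged 3.67 and 60.7 in V-K562 and B-K562 (3.71) and 4.33 and 22.7 in V-K562 and G-K562 (2.17). EPHB2 fell in B-K562 from 19.7 to 3.33 (−2.26), and TNFRSF19 in G-K562 from 34.3 to 0.667 (−4.47), a level at which the fitted change depends on the 1 added to each value. CD44 averaged 5796 in G-K562 and 767.1 in B-K562 (2.91). In the order given, the median log2 fold changes of the 6 lists were −0.52, −0.20, −0.43, 0.23, 0.39 and 0.06 in B-K562 and −0.38, 0.48, −0.34, 0.17, 0.27 and 0.07 in G-K562, beside 0.01 and 0.00 over all genes.

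Between the BASP1 lines, 38.1% of all genes tested were higher in G-K562 and 40.5% lower. Of the lists, 6 of 9 co-receptor and planar polarity genes and 4 of 7 other antagonists were higher in G-K562 and 2 of each were lower. Of the WNT target genes, 3 of 15 were higher and 7 lower. For ligand secretion and R-spondins, 1 of 4 was higher and 2 lower, for the transducers 6 of 18 and 5, and for the nuclear cofactors 4 of 11 and 3. TLE2 was 4.22 higher on the log2 scale in G-K562, PTK7 2.76 higher, and TLE4, LGR6 and TNFRSF19 differed by −4.44, −2.15 and −2.62, the last again at a level in G-K562 where the value depends on the 1 added.

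ATAC-seq regions were taken where they overlapped a member or lay within 5 kb of it. There were 195 such regions at 44 members, out of 85549 regions formed by merging the overlapping peak intervals of the 9 libraries, and all 29 analysed members had at least 1. The value of a region in a library is the highest summit pileup, the number of stacked tags at the peak's top. Peaks were called per library, so a library without a peak is not shown to have fewer tags there. It was entered in the test at a pileup of 17, so a fold change against such libraries measures nothing by itself.

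In B-K562, 10 of 121 tested regions at members were more open by adjusted p (8.52% of all regions tested) and 13 less open (16.5%), and 3 were at least 2-fold more open (1.61%) and 4 at least 2-fold less open (6.67%). In G-K562, 25 of 130 were more open (15.9%) and 25 less open (26%), with 4 opened (3.02%) and 12 closed (13.7%) at 2-fold. In G-K562 against B-K562, 16 of 127 were more open (16.7%) and 23 less open (20.6%), with 4 opened (5.82%) and 14 closed (11.2%) at 2-fold. Without scaling between libraries the 2-fold counts were 8 opened and 2 closed in B-K562, 13 opened and 5 closed in G-K562, and 8 opened and 11 closed between the BASP1 lines. Scaling within bins of GC content, chosen after the data were seen, gave 4 opened and 3 closed in B-K562. The closed count was 6 in G-K562 without V-K562 replicate 1, and 5 in G-K562 against B-K562 without B-K562 replicate 1, 2 or 3, where fewer regions have a peak in enough libraries to be tested. In B-K562 the opened count was 0 with V-K562 replicate 1 left out and 1 with replicate 3 left out, and the closed count 1 without B-K562 replicate 2 and 2 without B-K562 replicate 3. In G-K562 the opened count was 2 without V-K562 replicate 1 or G-K562 replicate 3 and 1 without G-K562 replicate 2.

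The plot of 9 regions by library shows regions described here, chosen after their values were seen. An intronic region of LEF1, 54267 bp into the gene, had summit pileups of 119, 100 and 89 in V-K562 and 110, 126 and 121 in B-K562, and no peak in any G-K562 library, although LEF1 RNA was higher in G-K562 than in V-K562. In TCF7L2, a region 110678 bp from the start had 63, 54 and 59 in V-K562, 85, 95 and 92 in B-K562 and a peak in only 1 G-K562 library, of 16. A region 113318 bp from the TCF7L2 start fell from 63, 55 and 58 in V-K562 to 26, 30 and 39 in G-K562 (log2 fold change −1.26 ± 0.20, adjusted p = 0.0023), with 54, 39 and 70 in B-K562. An upstream region of WNT3, 697 bp before the start, had 50, 41 and 39 in V-K562, 70, 71 and 63 in B-K562 and no peak in G-K562, where WNT3 RNA was lowest. A WNT3 intronic region at 39111 bp had peaks of 62, 70 and 65 in B-K562, 40 in 1 V-K562 library and none elsewhere. A second WNT3 intronic region, at 53671 bp, had 64, 51 and 61 in V-K562, 86, 85 and 54 in B-K562 and 30, 47 and 39 in G-K562, and was more closed in G-K562 than in B-K562 (log2 fold change −1.17, adjusted p = 0.0098). The opening of the region at 39111 bp in B-K562 (adjusted p = 0.021) reached adjusted p = 0.066 without V-K562 replicate 1 or 3 or B-K562 replicate 2.

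**Figure D4:**
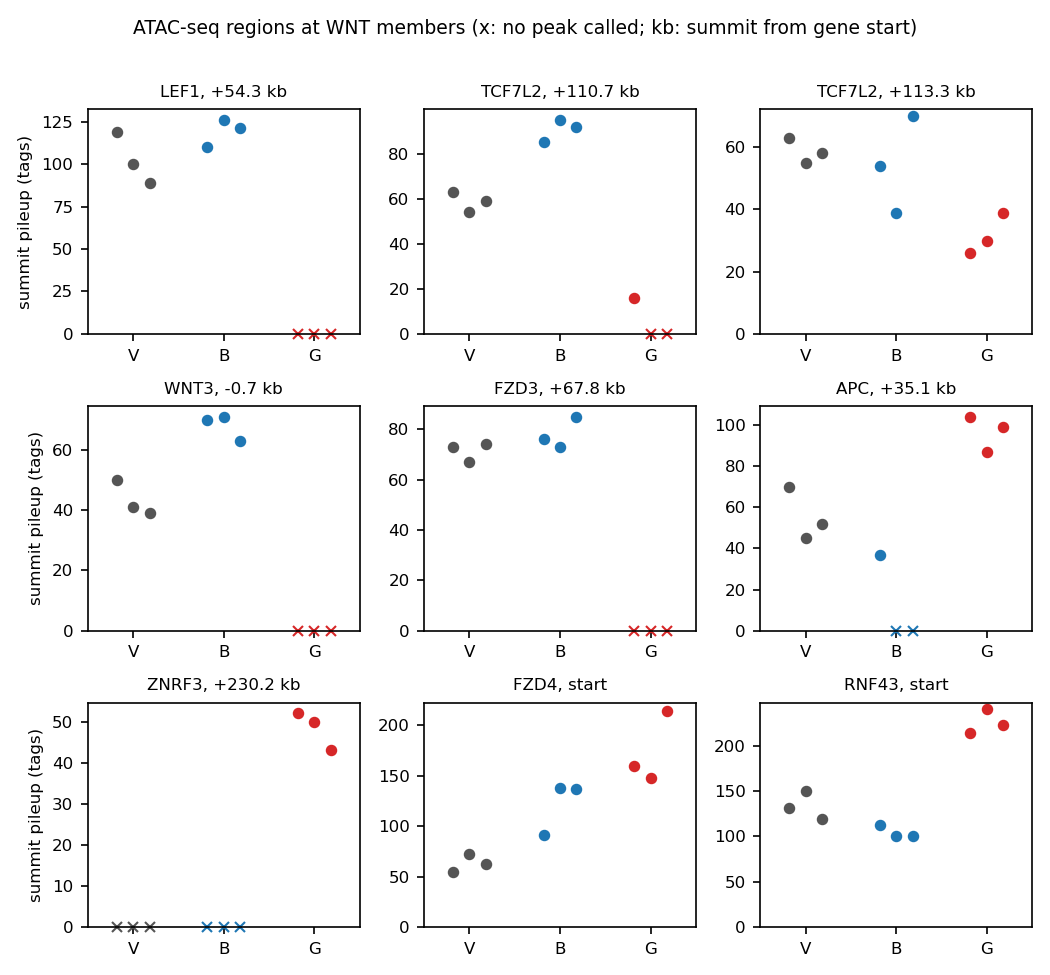
Summit pileup in tags (vertical axes from 0) of 9 ATAC-seq regions in each library of the V, B and G lines, before scaling, with a cross at 0 where no peak was called in that library. The LEF1, WNT3 and FZD3 regions have no peak in any G-K562 library, the ZNRF3 region has peaks in G-K562 libraries alone, and the RNF43 start is highest in G-K562.

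The reference sequence (GRCh38, plus strand) of 200 bases centred on the summit is shown for these 6 regions. They were the regions called closed in G-K562 at LEF1, TCF7L2 and WNT3, against V-K562 or B-K562. The LEF1 region, the WNT3 region at 39111 bp and the WNT3 upstream region had no G-K562 peak. These entered the tests through peaks of the other line alone. Their calls rest on the pileup of 17 set for missing peaks, and fewer tags in G-K562 are not shown. Capitals mark the letters AGATAA or their reverse complement TTATCT, a core of the GATA motif, which was searched after the values were seen. LEF1 at chr4:108114589-108114788, TCF7L2 at chr10:113060797-113060996 and chr10:113063437-113063636, and WNT3 at chr17:46779549-46779748 each hold 1 match, and WNT3 at chr17:46819357-46819556 and chr17:46764989-46765188 hold none.
LEF1 intron: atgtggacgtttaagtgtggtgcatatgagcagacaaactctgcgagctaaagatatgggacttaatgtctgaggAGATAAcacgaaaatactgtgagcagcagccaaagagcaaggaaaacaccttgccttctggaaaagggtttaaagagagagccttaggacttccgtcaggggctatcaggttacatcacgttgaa
TCF7L2 intron, first: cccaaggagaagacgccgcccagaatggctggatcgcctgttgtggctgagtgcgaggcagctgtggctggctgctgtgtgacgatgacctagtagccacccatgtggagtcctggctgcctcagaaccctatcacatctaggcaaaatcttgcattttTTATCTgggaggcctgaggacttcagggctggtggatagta
TCF7L2 intron, second: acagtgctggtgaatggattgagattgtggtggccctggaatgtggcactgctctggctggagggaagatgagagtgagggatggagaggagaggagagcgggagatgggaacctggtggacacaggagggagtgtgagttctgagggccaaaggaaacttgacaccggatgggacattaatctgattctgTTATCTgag
WNT3 intron, first: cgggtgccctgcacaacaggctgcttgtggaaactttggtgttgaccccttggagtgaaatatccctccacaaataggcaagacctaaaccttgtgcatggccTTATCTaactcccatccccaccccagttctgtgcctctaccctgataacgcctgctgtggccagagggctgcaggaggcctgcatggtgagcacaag
WNT3 intron, second: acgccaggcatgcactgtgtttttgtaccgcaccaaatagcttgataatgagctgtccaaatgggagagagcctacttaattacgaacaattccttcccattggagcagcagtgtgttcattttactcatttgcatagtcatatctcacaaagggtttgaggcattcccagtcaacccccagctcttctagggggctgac
WNT3 upstream: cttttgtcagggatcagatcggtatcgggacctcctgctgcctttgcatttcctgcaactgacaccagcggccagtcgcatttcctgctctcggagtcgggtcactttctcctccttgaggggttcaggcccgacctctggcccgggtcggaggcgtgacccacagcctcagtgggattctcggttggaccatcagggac

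Across all 85549 regions, 18.6% held AGATAA or its complement in this window, and 33 of the 195 regions at members did. Among regions closed at least 2-fold in G-K562 against B-K562 the share was 51.7% of 5753, and 9 of the 14 at members held it. Among those closed in G-K562 against V-K562 it was 47.1% of 7443, and 5 of the 12 at members held it. A match describes the letters in the window and is not a shown binding site. The upstream region of SFRP5, 274 bp before the start, is another that had peaks of 35, 31 and 29 in V-K562 and 51, 36 and 46 in B-K562 and none in G-K562. It holds 2 matches and is shown for that reason, from chr10:97772173-97772372 on the plus strand, although SFRP5 RNA in G-K562 (log2 fold change −0.50 against V-K562) did not pass the test.
SFRP5 upstream: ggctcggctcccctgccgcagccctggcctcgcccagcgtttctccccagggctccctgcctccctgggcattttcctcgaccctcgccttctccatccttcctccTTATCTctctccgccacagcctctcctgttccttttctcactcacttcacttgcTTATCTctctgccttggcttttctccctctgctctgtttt

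FZD3, whose RNA fell most, kept the region over its start. The start region had 54, 37 and 44 in V-K562, 49, 50 and 32 in B-K562 and 42, 56 and 49 in G-K562, overlapping in all lines (log2 fold change −0.22 in G-K562, adjusted p = 0.44). A region 67812 bp into the gene had 73, 67 and 74 in V-K562, 76, 73 and 85 in B-K562 and no peak in G-K562. Another, 3916 bp upstream and at the start of FBXO16, had 36, 28 and 35 in V-K562 and no peak in either BASP1 line. In APC, an intronic region at 35120 bp had 70, 45 and 52 in V-K562, a peak in 1 B-K562 library of 37, and 104, 87 and 99 in G-K562, and B-K562 is the line in which APC RNA was highest. The closing in B-K562 (adjusted p = 0.018) reached adjusted p = 0.054 without V-K562 replicate 1 or B-K562 replicate 2 or 3. The APC window holds none of the 5 motifs searched, and it is shown, from chr5:112742525-112742724 on the plus strand, as a region that closed in B-K562, where the RNA rose.
APC intron: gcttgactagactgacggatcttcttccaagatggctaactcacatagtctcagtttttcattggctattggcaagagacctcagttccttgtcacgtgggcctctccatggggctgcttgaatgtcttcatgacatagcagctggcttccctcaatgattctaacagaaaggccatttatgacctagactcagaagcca

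ZNRF3 had a region with peaks called in G-K562 alone, so it entered the tests through that line only. Fewer tags in the other lines are not shown. At 230195 bp from the start its summit pileups were 52, 50 and 43 in G-K562, and neither V-K562 nor B-K562 had a peak in any library. At 230995 bp a second region had 31, 35 and 50 in V-K562, 18, 16 and 23 in B-K562 and 39, 61 and 68 in G-K562. Its closing in B-K562 (log2 fold change −1.10, adjusted p = 0.014) reached adjusted p = 0.053 without B-K562 replicate 2. Both regions lie at the start of ZNRF3-AS1. The first, from chr22:29030749-29030948 on the plus strand, holds the TCF/LEF letters CTTTGAT, found in 1.7% of all regions and in 9 of the 195 at members, and the WT1 letters GNGTGGGNG, found in 8.57% and in 22. Motifs were searched on both strands. It is shown with both in capitals.
ZNRF3 intron: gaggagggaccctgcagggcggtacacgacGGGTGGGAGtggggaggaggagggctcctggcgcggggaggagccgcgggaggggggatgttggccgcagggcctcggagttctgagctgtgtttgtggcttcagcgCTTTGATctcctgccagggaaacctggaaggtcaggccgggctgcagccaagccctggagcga

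The region over a gene's start could be set beside its RNA for 16 members in B-K562 and 18 in G-K562. In B-K562, 1 start region passed an adjusted p of 0.05 as more open and 1 as less open, beside 20.7% and 1.86% of the start regions of all genes tested. RNF43 was less open (131, 150 and 119 in V-K562, 113, 101 and 100 in B-K562, log2 fold change −0.50, adjusted p = 0.015) with lower RNA. FZD4 was more open (55, 73 and 63 in V-K562, 91, 138 and 137 in B-K562, 0.77, adjusted p = 0.024) with lower RNA. In G-K562, 6 were more open (42.3% of all start regions) and 1 less open (3.59% of all). Of the 6 whose RNA also passed, 5 went the same way as the RNA (FZD1, FZD4, RNF43, TCF7 and ZNRF3), as did 61.5% of the 3158 such genes over the genome. Whether the members differ from that share was not tested. WNT2B went the other way, with a less open start (148, 139 and 168 in V-K562, 135, 124 and 131 in G-K562) and higher RNA.

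FZD4 had the largest change among these starts in G-K562, at 159, 148 and 214 and 1.09 ± 0.16 on the log2 scale (adjusted p = 0.0017), and RNF43 reached 214, 240 and 222 in G-K562, with a difference from B-K562 of 0.89 (adjusted p = 4.0e-04). The FZD4 region also covers the start of LOC100506368. TCF7L1, whose RNA did not pass, had a start region at 57, 62 and 42 in G-K562 against 24 and 25 in 2 V-K562 libraries (adjusted p = 0.021), reaching adjusted p = 0.066 without V-K562 replicate 1 or G-K562 replicate 2. In the plot of start accessibility beside RNA, most points lie to the right of 0 on the accessibility axis in both lines, with medians of 0.24 and 0.38 where all start regions had 0.25 and 0.34, and FZD3 stands alone at the bottom.

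**Figure D5:**
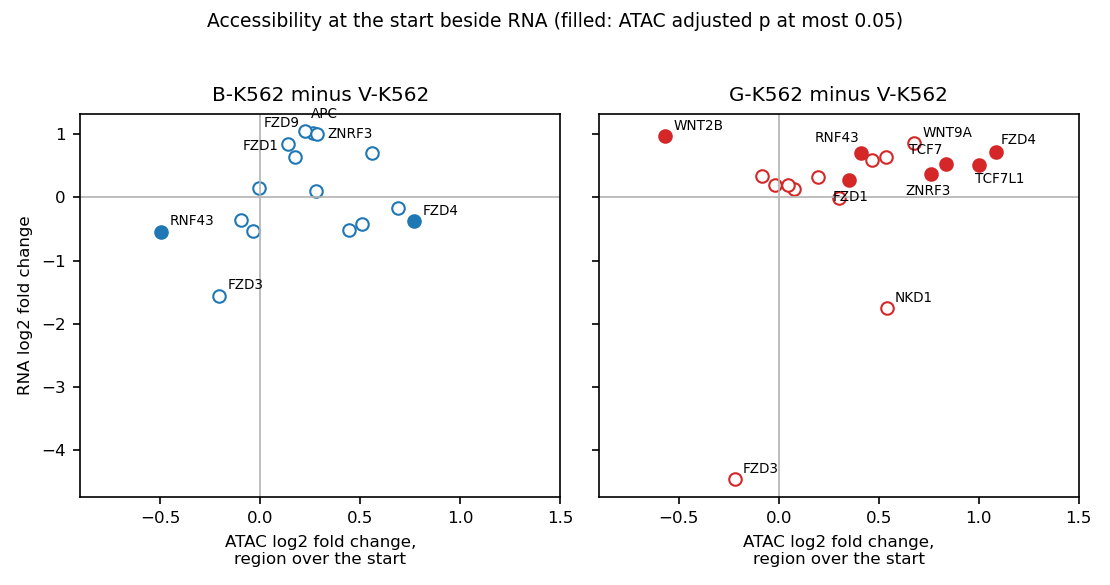
Log2 fold change of the ATAC-seq region over the gene start (horizontal axis) and of the gene's RNA (vertical axis) in B-K562 and G-K562 against V-K562, with 1 point per analysed member and filled points for an ATAC adjusted p of at most 0.05. FZD4 and RNF43 are filled in both panels, and FZD3 lies lowest in RNA with a start region near 0.

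RefSeq promoter sequences (GRCh38.p14) were held for 34 of the 51 members, 19 of them analysed. In the 250 bases before the start, none of the 34 held CTTTGAT, compared with 2.26% of all 35116 promoters. The WT1 letters GNGTGGGNG were in 8 of 34 and 14.6% of all, and the EGR letters GCGNGGGCG in 8 of 34 and 8.41% of all, both strands being searched. Member counts are of genes with a match in any of their 42 promoters, while the shares over all are of single promoters, so they cannot be compared directly. The WT1 and EGR letters can overlap. The FZD4 promoter is shown, from chr11:86955396-86955645 on the minus strand, because FZD4 changed in RNA and at its start in both lines. Its capitals mark the WT1 letters. RNF43 also changed in RNA and at its start in both lines, and was not among the members with the WT1 letters. Several promoters were held for RNF43 and none is shown, so the choice of FZD4 says nothing about the motif.
FZD4 promoter: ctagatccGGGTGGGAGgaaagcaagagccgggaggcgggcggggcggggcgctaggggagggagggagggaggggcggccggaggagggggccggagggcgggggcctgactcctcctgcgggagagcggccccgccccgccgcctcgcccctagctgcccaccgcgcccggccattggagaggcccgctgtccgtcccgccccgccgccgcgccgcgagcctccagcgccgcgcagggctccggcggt

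The remaining regions past 2-fold were fewer per gene. In WNT5B, 3 intronic regions were called closed in G-K562 against V-K562. They lay 37054, 47230 and 84670 bp from the start, with V-K562 summit pileups of 29 to 47, and a peak in 2, 0 and 1 of the 3 G-K562 libraries. The region at 47230 bp entered that test through V-K562 peaks alone, and all 3 calls lean on the pileup of 17 set for missing peaks. The first 2 of them overlap FBXL14. In LEF1, an exonic region 2283 bp from the start and close to the start of LEF1-AS1 opened in B-K562, from 29 and 25 in 2 libraries of V-K562 to 58, 63 and 54 (1.21 ± 0.26, adjusted p = 0.013). It had 56, 40 and 46 in G-K562. The WNT3 intronic region at 53671 bp had 64, 51 and 61 in V-K562, 86, 85 and 54 in B-K562 and 30, 47 and 39 in G-K562, and closed in G-K562 against B-K562 (−1.17, adjusted p = 0.0098). Regions of AXIN1 (19416 bp), LRP6 (76542 bp), WNT2B (48980 bp) and WNT11 (7511 bp and 29047 bp) were also called closed in G-K562 against B-K562, with V-K562 pileups of at most 40. AXIN1 had 41, 37 and 37 in B-K562 and no peak in G-K562. LRP6 had 39, 37 and 42 in B-K562, with 19 and 20 in 2 G-K562 libraries. The AXIN1, WNT2B and 29047 bp WNT11 regions entered this test through B-K562 peaks alone. Their calls therefore rest on the pileup of 17 set for missing peaks, and fewer tags in G-K562 are not shown.

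Members under the RNA filter had called regions as well. A WNT1 region 276 bp before the start opened in G-K562, at 46, 66 and 50 against 32 in 1 V-K562 library, but its adjusted p of 0.031 reached 0.099 without V-K562 replicate 1 or 3 or G-K562 replicate 2. A WNT6 intronic region opened in B-K562 (adjusted p = 0.020), which reached adjusted p = 0.061 without V-K562 replicate 1 or 3 or B-K562 replicate 1. An LGR5 intronic region had 50, 47 and 50 in G-K562 and 28, 28 and 37 in V-K562, with a peak in 1 B-K562 library. A WNT10A region that also lies within 5 kb of WNT6 was called closed in G-K562 against B-K562. It had 38, 26 and 33 in B-K562 and no peak in G-K562, so it entered that test through B-K562 alone. A DKK3 intronic region closed in both BASP1 lines. The RNA of these genes stayed below 10 in every library.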

How the data were processed

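RNA-seq and ATAC-seq were measured in 3 libraries of each line, grouped by the labels. The authors mapped reads to GRCh38, removed duplicates, kept uniquely mapped reads and assigned RNA pairs to RefSeq genes with Subread. The deposited RNA signal values are counts divided by DESeq2 size factors and rounded, in 1 table per BASP1 line, so tests for raw counts were not used. They total 32074895 to 33229588 per library, which is not the depth before scaling. Fold changes and p-values in these tables come from the authors' comparisons and were not used. ATAC peaks were called per library with MACS2 (47111 to 55570), and the deposited signal used is the summit pileup. Tool versions are not given in the sources used here.

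Genes with at least 10 in at least 3 libraries were tested with limma 3.58.1 (trend, R 4.3.3) on log2(value + 1), two-sided, with Benjamini-Hochberg adjustment over all genes. Fold changes on that scale understate low genes. For G-K562 against B-K562, a factor of 1.017, the mean ratio between the control values of the tables, was applied to B-K562. ATAC regions needed peaks in 3 or more of the 6 libraries compared, were scaled by a trimmed mean over shared regions, with pileups missing or under 17 set to 17, and were tested on log2(value). The tests were checked on simulated data. Every analysed member is named, and of other lists the largest rise and fall past 2-fold. Members, lists and motifs were chosen with earlier results of these data known, and the GATA and AP-1 (TGANTCA) motifs and all sequences after values were seen. The LEF1 promoter is annotated as transcribed and is not shown. Alternatives were other pseudocounts, filters, scalings, floors and windows, replicate blocks, and leaving out each library.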

Additional observations from a re-analysis of the deposited data

How the results depend on the processing

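Counts past 2-fold rest on members close to that line, since APC, ZNRF3, FZD9 and FZD7 lie within 0.1 of 1 on the log2 scale, and peaks called per library limit the ATAC-seq values where a library has none. Of 1313 values of named RNA results under alternatives, 1217 stayed on the same side of the threshold, 79 lost significance, 16 gained it and 1 changed sign. A change of sign was counted only where the main fit or the alternative passed the threshold. Of 402 ATAC-seq values, 383 kept their direction and side of the threshold and 19 lost significance. The value counted as changing sign was CTNNB1 in B-K562, at −0.0056 with upper quartile scaling. The cause was not tested for any of these moves, except that stricter filters test fewer genes and regions.

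Without a fold criterion, members counted as higher and lower were 11 and 8 in B-K562, 14 and 6 in G-K562, and 9 and 13 in G-K562 against B-K562, and regions opened and closed were 10 and 13, 25 and 25, and 16 and 23. A pseudocount of 5 left 2 higher members at 2-fold in B-K562 and 0 in G-K562, and one of 0.5 gave 2 in G-K562. Requiring 10 in every library left 1 lower at 2-fold in B-K562, 1 in G-K562 and 2 in G-K562 against B-K562, and 3 lower by adjusted p in G-K562. Quantile normalization gave 4 lower by adjusted p in B-K562, and at 2-fold 3 higher in G-K562 and 2 higher and 7 lower between the BASP1 lines. Upper quartile scaling gave 1 higher in B-K562 and 0 in G-K562 at 2-fold.

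For regions at 2-fold, no scaling gave 8 opened and 2 closed in B-K562, 13 and 5 in G-K562 and 8 opened between the BASP1 lines. Requiring a peak in every library gave 0 opened and 1 closed in B-K562 and 1 of each in the other comparisons. A floor of 10 gave 10 closed in B-K562, 12 opened in G-K562 and 12 opened between the BASP1 lines, and the mean pileup gave 1 opened and 2 closed in B-K562 and 2 opened in G-K562.

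Leaving out 1 library gave, at 2-fold, 2 to 4 higher and 1 to 2 lower members in B-K562, 0 to 2 higher and 2 to 4 lower in G-K562, and 3 to 4 higher and 4 to 5 lower between the BASP1 lines. By adjusted p it gave 5 to 8 lower in B-K562 and 8 to 14 higher in G-K562. Regions ranged from 0 to 4 opened and 1 to 5 closed in B-K562, 1 to 5 opened and 6 to 14 closed in G-K562, and 5 to 13 closed between the BASP1 lines. Libraries were treated as unpaired in the main tests. Correlations of deviations between same-numbered libraries were −0.0966 to 0.145 in RNA and 0.00955 to 0.111 in ATAC-seq. Between different-numbered libraries they were −0.175 to 0.22 in RNA and −0.083 to 0.0404 in ATAC-seq. Whether ATAC-seq libraries were weakly paired by number was not tested. With the replicate block, 12 members in place of 14 rose in G-K562, and the other counts by adjusted p or 2-fold were the same as without it.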
